A study of Homo sapiens with 6 samples.

Results

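The globin genes and AHSP, the chaperone of alpha-globin, were followed on 6 whole-transcript arrays of 3 human leukaemia cell lines. Every feature whose platform annotation named HBZ, HBM, HBA1, HBA2, HBQ1, HBE1, HBG1, HBG2, HBD, HBB or AHSP was taken, which gave 9 of 67528 features. In K562, UT7-5.3 and MV4-11 alike, lentiviral vectors brought in shRNA against CXXC5 (the shRINF arrays) or a control shRNA (the shcontrol arrays), with 1 array per line and treatment. The line is therefore the replicate, and no line had a second culture. All cells were proliferating, and the UT7-5.3 cells were grown with GM-CSF. K562 was established from chronic myeloid leukaemia and can make haemoglobin. UT7-5.3 belongs to the UT-7 family of lines, which depend on a cytokine for growth, and MV4-11 is a monocytic acute leukaemia line. CXXC5, or RINF, carries a zinc finger of the CXXC type, a fold known to bind unmethylated CpG sites.

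Haemoglobin is a tetramer of 2 alpha-like and 2 beta-like chains. The alpha-like genes lie together on chromosome 16 and hold the embryonic zeta gene HBZ, the adult alpha genes HBA1 and HBA2, and the mu and theta genes HBM and HBQ1. The beta-like genes lie together on chromosome 11 and hold the embryonic epsilon gene HBE1, the fetal gamma genes HBG1 and HBG2, and the adult delta and beta genes HBD and HBB. Each cluster is switched on in erythroid cells by a distal enhancer, and the embryonic, fetal and adult genes are used one after another in development. AHSP, also on chromosome 16, binds free alpha chains and keeps them soluble until they meet a beta-like chain. K562 is known for embryonic and fetal globins with little beta-globin.

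Because HBA1 and HBA2 encode the same protein and differ little in sequence, both of their features named both genes, 1 listing HBA2 first and 1 listing HBA1 first. HBG2, HBG1 and HBE1 had no features of their own. They shared 1 feature with OR51B5, an olfactory receptor gene beside the cluster, and cannot be told apart here. HBB and HBD are close in sequence, and how far their probes read each other was not tested. Values are log2 expression (RMA), a log2 value of 4 or less was read as floor, and levels were compared between arrays but not between features.

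The upstream 250 bases of 2 of the 11 genes, HBD and HBM, were taken from a RefSeq promoter table of build GRCh38.p14. Both are shown because they were the 2 of the 11 genes matched in that table. HBD had the largest mean difference between shRINF and shcontrol of the 9 features, and HBM lies in the alpha cluster. Capitals mark matches on either strand to 6 motifs, none overlapping here: the CCAAT box, the KLF motif CACCC, the GATA factor motif as AGATAA and as TGATAA, and the TATA box as TATAAA and as CATAAA. Both sequences run 5′ to 3′ and end just before the start of the gene. HBD lies at chr11:5234484-5234733 on the minus strand, and HBM at chr16:165728-165977 on the plus strand.
HBD: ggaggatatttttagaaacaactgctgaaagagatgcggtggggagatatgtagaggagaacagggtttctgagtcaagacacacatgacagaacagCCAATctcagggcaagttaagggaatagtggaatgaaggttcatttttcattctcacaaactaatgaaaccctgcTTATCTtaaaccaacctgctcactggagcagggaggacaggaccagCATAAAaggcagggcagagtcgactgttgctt
HBM: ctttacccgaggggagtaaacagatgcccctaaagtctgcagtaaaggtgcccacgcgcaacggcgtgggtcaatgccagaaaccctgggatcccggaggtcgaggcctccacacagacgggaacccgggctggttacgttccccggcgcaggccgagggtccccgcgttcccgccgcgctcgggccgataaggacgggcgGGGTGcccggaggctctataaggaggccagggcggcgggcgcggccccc

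The HBD window held the letters CCAAT 153 bases before the start, a motif present in 32.0% of 35116 windows of the same length. Whether this match serves as a CCAAT box was not tested. It held AGATAA on the opposite strand 78 bases before the start (9.17% of windows). CATAAA lay 32 bases before the start (9.64% of windows). CACCC was not found in the HBD window and was found once in the HBM window, 49 bases before the start, as in 54.7% of windows. The HBD window held 2 CG dinucleotides and the HBM window 27, against a median of 11 over all windows. These matches describe letters and do not show binding.

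In every line the shRINF array had less CXXC5 signal than the shcontrol array. CXXC5 was at 7.95 with shRINF against 8.40 with shcontrol in K562, at 7.76 against 8.42 in UT7-5.3, and at 7.95 against 8.58 in MV4-11. Its mean difference was -0.58 ± 0.11 log2 units (SD, n = 3 lines), and limma's adjusted p over 17386 features was 0.287. Without MV4-11 it was called, at -0.56 (limma adjusted p = 0.0226). Array medians lay between 4.64 and 4.71 over all features. Across features, the correlation was at least 0.993 within a line and at most 0.959 between lines.

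The globin levels separated the lines before any effect of the shRNA was asked. K562 and UT7-5.3 had high zeta- and alpha-globin signals, K562 had the higher gamma and epsilon signal, UT7-5.3 had the higher delta and beta signals, and MV4-11 was low for nearly all. Each line had 2 arrays, 1 of each treatment, which are no second culture. Lines were compared in the limma fit with line and shRNA as terms, and a difference was called when it reached 2-fold with an adjusted p below 0.05.

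**Figure D1:**
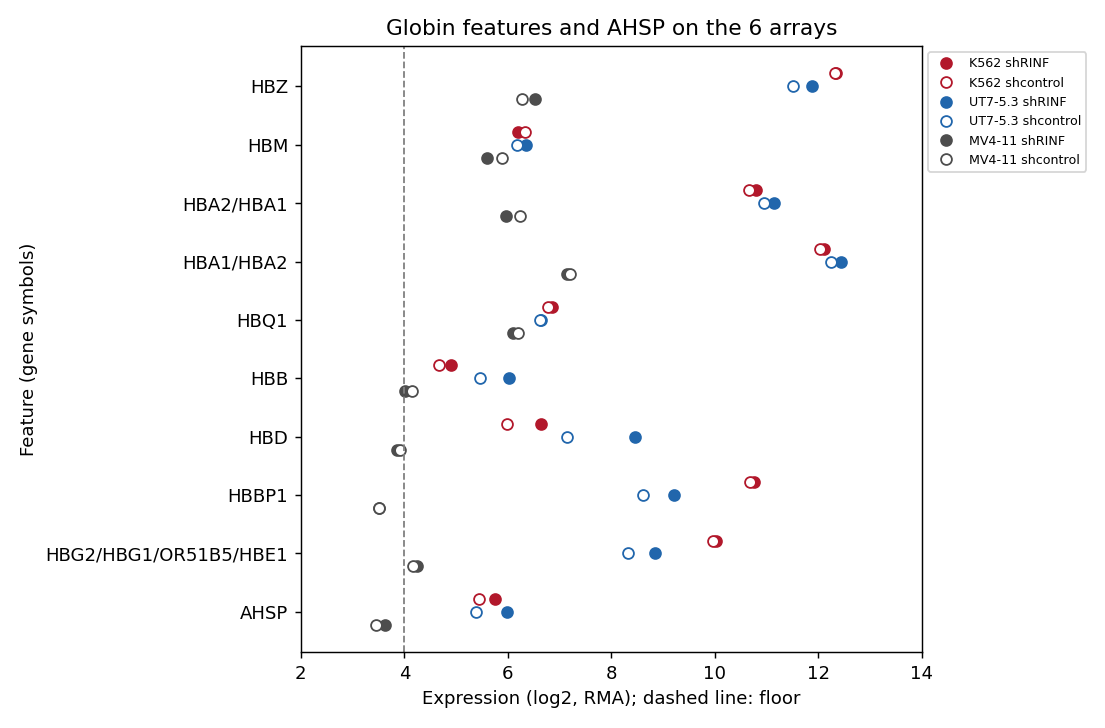
Expression of the 9 globin and AHSP features and of the pseudogene HBBP1 on each array (horizontal axis, log2 RMA value). Filled points are shRINF arrays, open points shcontrol arrays, colours mark the line, and the dashed line marks the floor of 4. The MV4-11 points lie farthest left in every feature, and HBD in UT7-5.3 has the widest gap between a filled and an open point, 8.46 against 7.14.

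HBZ, the embryonic zeta chain, was at 12.34 and 12.32 in K562 with shRINF and shcontrol, at 11.88 and 11.51 in UT7-5.3, and at 6.52 and 6.28 in MV4-11. All 3 lines were apart, with K562 above UT7-5.3 and MV4-11 far below. K562 exceeded MV4-11 by 5.93 log2 units (95% confidence interval 5.68 to 6.18; limma adjusted p = 5.28e-12), or 61.0-fold. K562 exceeded UT7-5.3 by 0.64 (0.38 to 0.89; limma adjusted p = 0.000821), which was under 2-fold.

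The feature listing HBA1 first was at 12.10 and 12.04 in K562 with shRINF and shcontrol, at 12.43 and 12.24 in UT7-5.3, and at 7.14 and 7.20 in MV4-11. The feature listing HBA2 first was at 10.79 and 10.65, at 11.14 and 10.94, and at 5.97 and 6.24 in the same order. On both features UT7-5.3 lay just above K562 with no overlap, but the contrast of K562 against UT7-5.3 did not pass (limma adjusted p = 0.0705 and 0.0645). The 95% confidence intervals, not adjusted for the number of features, were -0.50 to -0.03 log2 units for the feature listing HBA1 first. For the one listing HBA2 first they were -0.60 to -0.04. This side of the threshold depended on the processing. The feature listing HBA1 first passed an adjusted p of 0.05 with quantile normalization (limma adjusted p = 0.0198), cyclic loess (0.0174) and a variance trend (0.0279), and the other with cyclic loess (0.0482), all under 2-fold. Against MV4-11 the alpha-globin signal was 24.5-fold to 29.9-fold higher in K562 and 30.6-fold to 35.9-fold higher in UT7-5.3.

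The shared HBG2, HBG1, OR51B5 and HBE1 feature was at 10.02 and 9.96 in K562 with shRINF and shcontrol, at 8.84 and 8.32 in UT7-5.3, and at 4.24 and 4.17 in MV4-11. K562 was the highest line, by 1.41 log2 units over UT7-5.3 (1.13 to 1.69; limma adjusted p = 3.9e-06), or 2.66-fold. MV4-11 lay just above the floor. HBBP1, the pseudogene between the gamma and delta genes, had the same order, at 10.75 and 10.67 in K562, 9.22 and 8.61 in UT7-5.3, and 3.51 and 3.52, at the floor, in MV4-11.

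HBD, the delta chain of the minor adult haemoglobin, was at 6.64 and 5.99 in K562 with shRINF and shcontrol, at 8.46 and 7.14 in UT7-5.3, and at 3.86 and 3.91 in MV4-11. The order of K562 and UT7-5.3 was thus the opposite of that of the gamma and epsilon feature. K562 was lower than UT7-5.3 by -1.49 log2 units (-1.99 to -0.98; limma adjusted p = 0.000275), and this call ended with robust variance estimation (limma adjusted p = 0.0651, the highest of all alternatives, which began at 9.78e-05). Both MV4-11 values were at the floor, so against the floor HBD was at least 4.98-fold higher in K562 and at least 13.9-fold higher in UT7-5.3.

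HBB, the adult beta chain, was at 4.91 and 4.67 in K562 with shRINF and shcontrol, at 6.03 and 5.47 in UT7-5.3, and at 4.02 and 4.15 in MV4-11. It followed the order of HBD, with K562 below UT7-5.3 by -0.96 (-1.28 to -0.64; limma adjusted p = 0.000228), just under 2-fold. K562 exceeded MV4-11 by 0.71 on this feature, also under 2-fold, and UT7-5.3 exceeded MV4-11 by 1.67.

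AHSP was at 5.75 and 5.45 in K562 with shRINF and shcontrol, at 5.98 and 5.39 in UT7-5.3, and at 3.63 and 3.45 in MV4-11. K562 and UT7-5.3 overlapped (difference -0.09, interval -0.35 to 0.18), and MV4-11 was at the floor. AHSP was at least 3.03-fold higher in K562 and at least 3.22-fold higher in UT7-5.3 than the floor.

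HBM was at 6.19 and 6.33 in K562 with shRINF and shcontrol, at 6.36 and 6.17 in UT7-5.3, and at 5.59 and 5.89 in MV4-11. HBQ1 was at 6.85 and 6.77, at 6.64 and 6.63, and at 6.10 and 6.20 in the same order. These mu and theta features spanned less than 1 log2 unit over all arrays, and none of their line contrasts reached 2-fold. The files hold no detection calls, so whether these values stand above background is not known.

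In all, 2 of 9 features were called between K562 and UT7-5.3, the gamma and epsilon feature higher and HBD lower in K562. Over all 17386 features 4.23% were called higher and 5.98% lower in that contrast. Against MV4-11, 6 of 9 were called higher in K562 and 7 of 9 in UT7-5.3, and none lower. There 7.20% of all features were called higher and 8.16% lower in K562, and 7.14% higher and 6.55% lower in UT7-5.3.

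Comparing shRINF with shcontrol asked whether the globin genes moved when CXXC5 was targeted. No globin feature passed limma's adjusted p of 0.05, nor did any other of the 17386 features (0.00% called). At an unadjusted p under 0.05, 3 of 9 globin features were higher, HBD, AHSP and HBZ, and none lower, against 4.01% higher and 2.02% lower of all features. For HBD and AHSP that p takes in an MV4-11 difference with both values at the floor. With values of 4 or less set to 4, the mean difference was 0.66 for HBD and 0.30 for AHSP, against 0.64 and 0.36 as deposited. Within K562 and UT7-5.3, however, HBD differed by more than nearly all other features. In UT7-5.3 all 9 features were higher with shRINF, by 0.01 (HBQ1) to 1.32 (HBD), where 41.5% of all features were higher.

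HBD was higher with shRINF by 0.65 log2 units in K562 (1.57-fold) and by 1.32 in UT7-5.3 (2.5-fold), as the array values above show. It ranked at place 6 from the top of 17386 features in K562 and again at place 6 in UT7-5.3. It was the only one of these features past 1.5-fold higher in both lines, where 0.0633% of features passed that fold in K562 and 1.49% in UT7-5.3. In MV4-11 both values were at the floor, and the difference of -0.05 is not read. Over 3 lines, with the floor difference of MV4-11 included, the mean difference was 0.64 ± 0.69 (SD, n = 3). Its interval, not adjusted for the number of features, was 0.23 to 1.05, and limma's adjusted p was 0.776. Without MV4-11 limma called HBD at a mean difference of 0.99 (adjusted p = 2e-09, the lowest of 14 alternatives, the highest being 1). That fit had 1 residual degree of freedom and gave all features the same pooled spread, called 58 of 17386 features (0.334%), and rests on 1 pair of arrays in each of K562 and UT7-5.3. Without UT7-5.3 the mean difference of HBD was 0.30 (limma adjusted p = 0.84), and without K562 it was 0.63 (0.847), neither of them called.

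**Figure D2:**
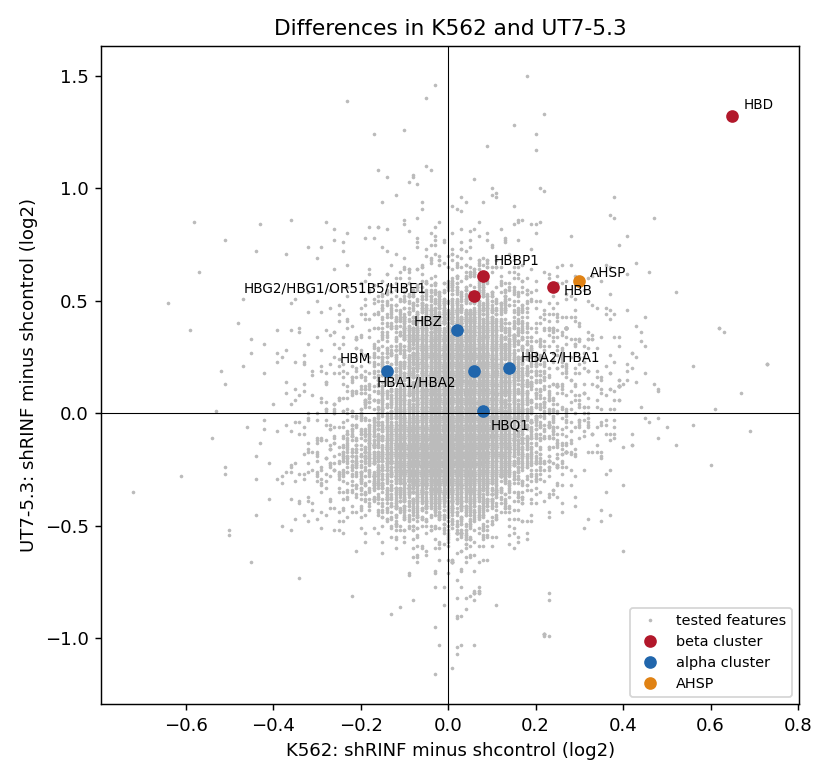
Difference of shRINF minus shcontrol (log2) in UT7-5.3 (vertical axis) against that in K562 (horizontal axis) for 17386 tested features in grey, with the globin features and HBBP1 in colour by cluster. Each axis is 1 pair of arrays. HBD lies at 0.65 and 1.32, apart from the grey points, and the other beta cluster features lie between 0.52 and 0.61 in UT7-5.3.

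HBB was higher by 0.24 in K562 and by 0.56 in UT7-5.3, and was -0.13 in MV4-11, where it lay close to the floor. Its K562 values, 4.91 and 4.67, were low too, and it reached the level of 5 needed to be tested only in UT7-5.3. Of all features, 2.30% were higher by as much or more in K562 and 1.85% in UT7-5.3. Its mean difference was 0.22 ± 0.35 (SD, n = 3; limma adjusted p = 0.776).

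The gamma and epsilon feature differed between UT7-5.3 and K562. It was higher with shRINF by 0.52 in UT7-5.3, where 2.60% of features were higher by as much or more. In K562 it was higher by 0.06, where 30.0% of features were higher by as much or more. HBBP1 behaved alike, at 0.61 in UT7-5.3 and 0.08 in K562. With 1 array per line and treatment the difference between lines was not tested.

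AHSP was higher by 0.30 in K562, by 0.59 in UT7-5.3 and by 0.18 in MV4-11, where both values were at the floor. A rise as large or larger was seen in 1.11% of features in K562 and 1.49% in UT7-5.3. The mean difference was 0.36 ± 0.21 (SD, n = 3; interval 0.14 to 0.57; limma adjusted p = 0.776), and without MV4-11 it was 0.44 and was not called (adjusted p = 0.141). RUSF1 and YBX3P1, the features on either side of AHSP in the RefSeq order, differed by -0.20 and 0.33 in UT7-5.3 and by 0.07 and 0.00 in K562.

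The 5 alpha cluster features ranged from -0.14 to 0.14 in K562, from 0.01 to 0.37 in UT7-5.3 and from -0.30 to 0.24 in MV4-11. The 3 beta cluster features ranged from 0.06 to 0.65, from 0.52 to 1.32 and from -0.13 to 0.07 in the same lines, and the clusters were not tested against each other. For HBZ the UT7-5.3 arrays differed by 0.37, with 0.24 for MV4-11 and 0.02 for K562. This gave 0.21 ± 0.18 over the lines (SD, n = 3), not called by limma at an adjusted p of 0.776. The 2 alpha-globin features differed by 0.14 and 0.06 in K562, by 0.20 and 0.19 in UT7-5.3, and by -0.27 and -0.06 in MV4-11, with HBA2 listed first given first. Their direction over 3 lines was not stable, since the mean differences of 0.02 and 0.06 turned negative with quantile normalization and with cyclic loess. The mean of HBQ1, close to 0, turned positive with both. Taking K562, UT7-5.3 and MV4-11 in turn, HBM differed by -0.14, 0.19 and -0.30, and HBQ1 by 0.08, 0.01 and -0.10. The 95% confidence intervals over 3 lines were -0.31 to 0.14 for HBM and -0.19 to 0.18 for HBQ1.

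**Figure D3:**
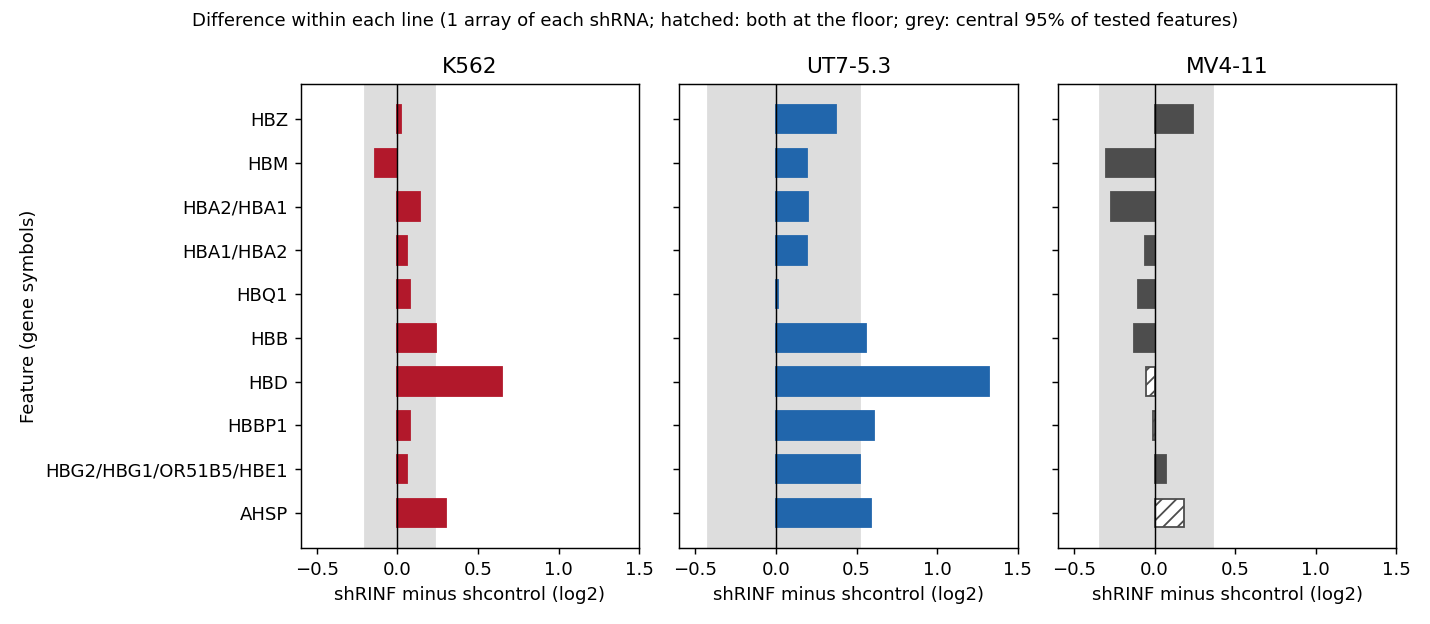
Difference of shRINF minus shcontrol (log2, horizontal axis) for each globin feature, HBBP1 and AHSP in K562, UT7-5.3 and MV4-11, each from 1 array per treatment. The grey band holds the central 95% of 17386 tested features, -0.20 to 0.23 in K562, -0.42 to 0.52 in UT7-5.3 and -0.34 to 0.36 in MV4-11, and hatched bars have both values at the floor. HBD, AHSP and HBB lie beyond the upper edge in K562 and in UT7-5.3, with HBBP1 beyond it in UT7-5.3 too, and no member lies beyond either edge in MV4-11.

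Counted by line, 8 of 9 features were higher with shRINF in K562, 9 of 9 in UT7-5.3 and 3 of 9 in MV4-11, where 53.1%, 41.5% and 48.5% of all features were higher. The 9 had median differences of 0.08 (K562), 0.37 (UT7-5.3) and -0.06 (MV4-11), beside 0.01, -0.06 and 0.00 over all features. HBZ, AHSP and the gamma and epsilon feature, 3 of 9, were higher in all 3 lines, as were 13.5% of all features, with AHSP at the floor in MV4-11. Past 1.5-fold upward there was 1 of 9 in K562, HBD, and 2 of 9 in UT7-5.3, HBD and AHSP, and none downward, where 0.0230% and 0.552% of all features lay. None of the 9 passed that fold in MV4-11, where 0.736% of all features did so upward and 0.638% downward.

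In UT7-5.3 the higher signal ran beyond the globin genes on 1 side of the beta cluster. These neighbours were examined after their values were seen. Beyond the epsilon gene, OR51B4 was at 7.24 with shRINF and 6.44 with shcontrol in UT7-5.3, a difference of 0.80. OR51B2 was at 6.63 against 5.81, a difference of 0.82, and the 2 OR51I1 features were at 7.57 against 6.57 and at 5.81 against 5.16. All 4 exceeded 1.5-fold, as did 1.49% of all features in that line, and nothing is read from this count because they were chosen by their values. The mean difference of the first OR51I1 feature was 0.55 without MV4-11 and -0.17 without UT7-5.3. In K562 the same 4 features stood higher, between 6.85 and 9.56, and differed by only -0.04 to 0.10. In MV4-11 they lay between 3.27 and 4.61. The other features among the nearest 10 genes on that side, such as OR51B6, OR51M1 and OR51Q1, did not reach the level of 5 on 2 arrays that was needed to be tested, nor did any of 8 on the HBB side. These OR51 genes encode olfactory receptors, and whether these features read their own transcripts or longer ones through the cluster was not tested.

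The neighbours of the alpha cluster are given as values, and the 2 loci were not tested against each other. Their neighbours are unlike sets. All those of the alpha cluster passed the filter, against 4 of 11 features on the epsilon side of the beta cluster and 0 of 8 on the HBB side. Of 18 features neighbouring the alpha cluster, 8 on the HBZ side and 10 on the HBQ1 side, 1 was higher in UT7-5.3, where 41.5% of all features were. They ranged from -0.38 (MPG) to 0.04 (SNRNP25). NPRL3, whose introns hold the alpha-globin enhancers, was at 7.38 with shRINF and 7.67 with shcontrol in UT7-5.3, a difference of -0.29, and differed by 0.01 in K562. The 5 alpha cluster features between these neighbours ranged from 0.01 to 0.37 in UT7-5.3.

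**Figure D4:**
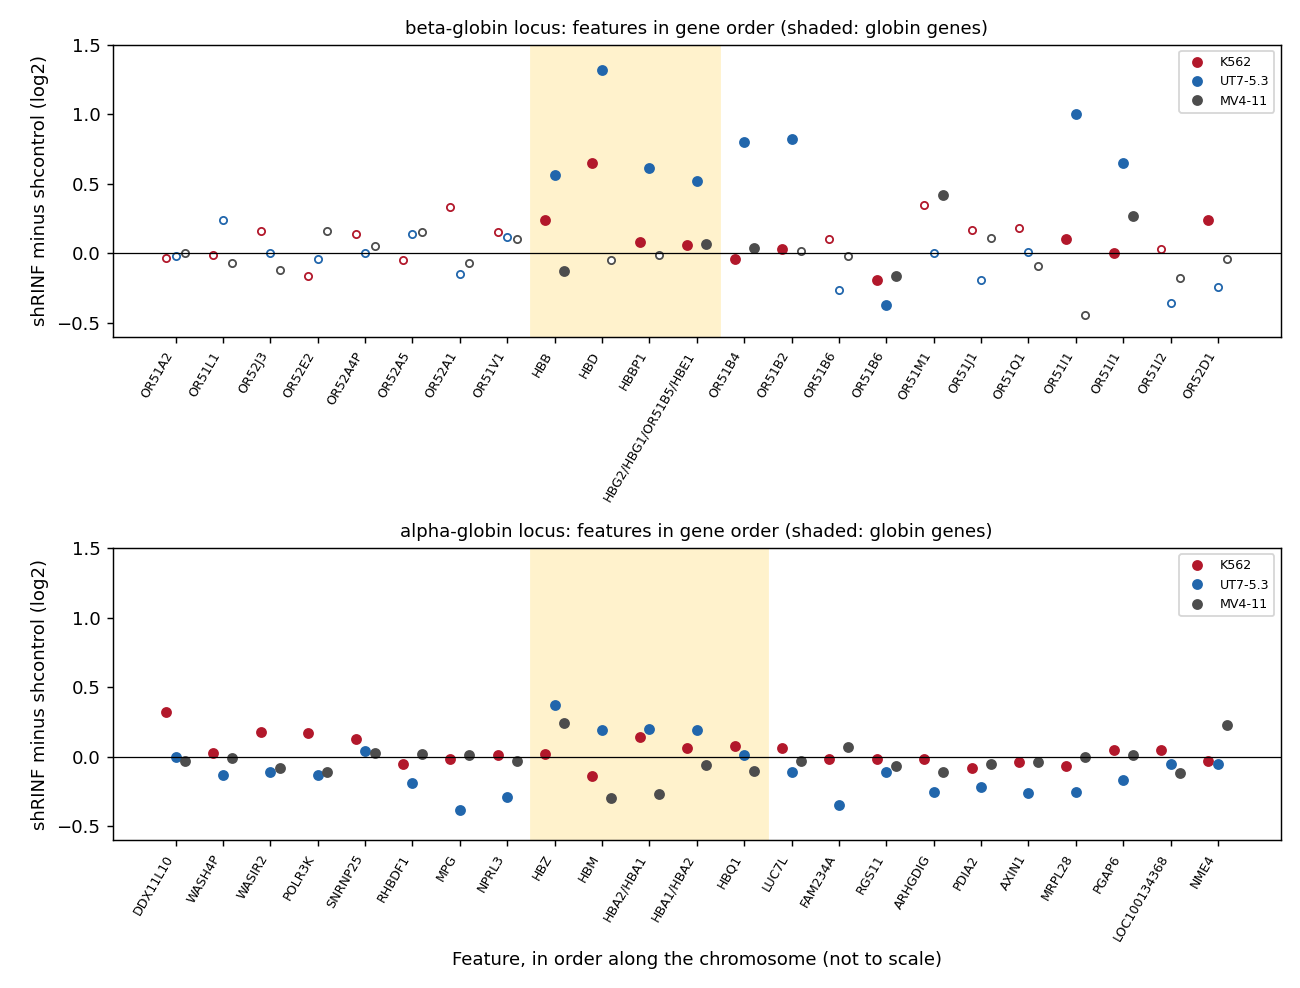
Difference of shRINF minus shcontrol (log2, vertical axis) for features in gene order along the beta- and alpha-globin loci, by line, with the globin genes shaded and spacing not to scale. Open points have both values at the floor. In UT7-5.3 the raised points run from HBB to OR51I1, between 0.52 and 1.32 apart from features near the floor. In that line the neighbours of the alpha cluster lie between -0.38 and 0.04, and the loci were not tested against each other.

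Other erythroid genes gave a setting for these values. The lists were chosen with earlier results of these data known and are described by counts alone. Of 27 measured regulators of globin transcription and switching, none was called or had an unadjusted p under 0.05, and their median difference was -0.03, beside -0.01 over all features. KLF1, an activator of beta-globin, was at -0.20 ± 0.31, and NFE2, which binds the enhancers of the clusters, at -0.18 ± 0.23 (SD, n = 3). Both means owed most to MV4-11, whose differences were -0.54 for KLF1 and -0.44 for NFE2. The K562 differences of KLF1 and NFE2 were 0.07 and 0.01, and those of UT7-5.3 were -0.12 and -0.11. KLF3 was at 0.14 ± 0.15 and IGF2BP1 at -0.13 ± 0.11 (SD, n = 3). GATA1, the main erythroid factor, was at 10.45 and 10.39 in K562 with shRINF and shcontrol and at 9.83 and 9.81 in UT7-5.3, against 5.62 and 5.94 in MV4-11. BCL11A, a repressor of gamma-globin, had the opposite order, at 4.92 and 4.78 in K562, 5.10 and 5.33 in UT7-5.3 and 7.89 and 7.59 in MV4-11. Of 22 components of repressor complexes at the globin loci, none was called either, with a median of 0.01. HDAC2 and EZH2 were each at 0.13, EED at 0.11 and MTA1 at -0.09.

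Of 13 haem synthesis genes none was called, and their median was -0.02. CPOX was the one with an unadjusted p under 0.05, lower at 6.73 with shRINF and 7.23 with shcontrol in K562, 6.71 and 7.23 in UT7-5.3, and 7.07 and 7.12 in MV4-11. ALAS2, the first enzyme of erythroid haem synthesis, had differences of 0.17 for K562 and 0.20 for UT7-5.3, FECH of 0.18 and 0.20, and ABCB10 was at -0.04 and 0.34. Of 20 red cell membrane and enzyme genes none was called, 5 were higher at an unadjusted p under 0.05 and none lower, with a median of 0.08. Of all features 4.01% were higher and 2.02% lower at that p. The 4 with the largest means were the carbonic anhydrases CA1, at 0.31 ± 0.41, and CA2, at 0.22 ± 0.21, the nuclear protein HEMGN, at 0.30 ± 0.33, and catalase, CAT, at 0.20 ± 0.09 (SD, n = 3). CA1 and HEMGN owed their means to UT7-5.3, at 0.77 and 0.66. Of the globins outside the clusters, CYGB differed by 0.01, -0.30 and -0.11, MB by 0.00, -0.20 and -0.07, and NGB by -0.08, -0.19 and 0.35 across K562, UT7-5.3 and MV4-11. None of the 3 was called.

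Lineage markers were set beside these values, and none was called. In UT7-5.3 41.5% of all features were higher. Of 7 megakaryocytic markers tested there, 1 was higher and 5 lower with shRINF, and the summed linear level of the 8 measured was 1114 with shRINF and 1464 with shcontrol. ITGB3 was at 6.75 with shRINF and 7.61 with shcontrol and ITGA2B at 8.21 and 8.79, whereas TUBB1 was at 6.59 and 6.05, and PPBP was at the floor on both arrays. Of 7 erythroid markers 5 were higher and 2 lower, with sums of 3307 with shRINF and 3144 with shcontrol. Of 10 monocytic and granulocytic markers 3 were higher and 7 lower, with sums of 2380 and 2345. The part of these markers in the globin differences was not tested, and in bulk RNA more cells of a type and more RNA per cell cannot be told apart. In K562, where 53.1% of all features were higher, all 7 erythroid markers were higher, with sums of 6129 with shRINF and 5718 with shcontrol. The megakaryocytic sum there was 726 with shRINF and 646 with shcontrol, with 4 of 7 higher, and the monocytic and granulocytic sum 1693 and 1665. In MV4-11, where 48.5% of all features were higher, 2 of 7 erythroid markers were higher, with sums of 401 with shRINF and 504 with shcontrol. The megakaryocytic sum there was 330 with shRINF and 348 with shcontrol, and the monocytic and granulocytic sum 12974 and 10929.

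No feature was among the 5 nearest to HBD by both measures used. By the 3 within-line differences the nearest were SNORD113-1, STAP1, SNORD114-23, EPSTI1 and MIR548W, at Euclidean distances of 0.503 to 0.544. This order rests in part on differences at the floor, since HBD was at the floor in MV4-11, and SNORD113-1 and SNORD114-23 in both K562 and MV4-11. Of the other 3, STAP1 differed by 0.38 in K562, EPSTI1 by 0.18 and MIR548W by 0.15, beside 0.65 for HBD. By the correlation of levels over 6 arrays, which fall into 3 pairs of a line, the nearest were PNMT, INTS4P2, MRPS5, EPB42 and RAB32, at Pearson's r of 0.996 to 0.999. EPB42, a protein of the red cell membrane skeleton, was at 6.21 and 6.06 in K562 with shRINF and shcontrol, 6.78 and 6.35 in UT7-5.3, and 5.24 and 5.33 in MV4-11. These are descriptions over arrays that share their lines, with no test.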

How the data were processed

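Per the submitters' processing notes, the authors summarised the arrays by RMA using Affymetrix Expression Console, and the deposited values are on a log2 scale. No version, probe annotation or genome build is stated in what was used here. The log base was taken as 2 from the method and the range of 1.63 to 13.89. RMA gives the probe values of all arrays a common distribution, so a shift shared by most transcripts would be largely removed. The summarised feature values were close in distribution but not identical, with array medians between 4.64 and 4.71. There are no detection calls, and precision is limited by having 6 arrays.

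Symbols came from the platform table (23781 with 1 symbol, 1543 with several, 42204 with none listed). Features with at least 1 symbol and a value of 5 or more on at least 2 of 6 arrays were tested, 17386 in all, among them all 9 globin and AHSP features. Tests used limma 3.58.1 in R 4.3.3 (lmFit, eBayes) with cell line and shRNA as terms, 2 residual and 9.09 prior degrees of freedom, and Benjamini-Hochberg adjustment over all tested features. All confidence intervals are limma's 95% intervals for single features and, unlike the adjusted p, take no account of the number of features. Labels give no replicate numbers, and arrays were paired by line. P-values of shRINF against shcontrol measure only the spread over 3 lines with 1 array per treatment. Exact sign flipping over 3 pairs reaches a two-sided p of 0.25 at best. The p-values and intervals of the contrasts between lines rest on the spread left after the line and shRNA terms. With no second culture of a line, they do not measure variation between cultures. Within a line differences have no test and were set against a fold of 1.5.

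Named were CXXC5, all members, the 5 features nearest HBD by each of 2 measures, and up to 4 genes a list by size of mean difference. GATA1, BCL11A, EPB42 and the neighbours were named after their values were seen, as were other markers. Members and lists were chosen with earlier results of these data known. The procedure was tested on simulated data. Gene order and promoters came from RefSeq tables of GRCh38.p14. Alternatives covered the filter, features, normalization, variance model, block, folds and each line left out. Setting values of 4 or less to 4 was added after the data were examined.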

Additional observations from a re-analysis of the deposited data

Results flagged for a closer look

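Globin features whose differences (shRINF minus shcontrol, log2) had opposite signs in 2 lines are given here. Each line has 1 array per treatment, the differences between lines were not tested, and features with both values at the floor were left out. HBB was 0.37 higher in K562 than in MV4-11 in its difference and 0.69 higher in UT7-5.3 than in MV4-11. For the feature listing HBA2 first these gaps were 0.41 and 0.47, for the feature listing HBA1 first 0.12 and 0.25, and for HBQ1 0.18 and 0.11. HBM went the other way between K562 and UT7-5.3, with a gap of -0.33, and its gap between UT7-5.3 and MV4-11 was 0.49.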

How the results depend on the processing

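No globin feature was called for shRINF against shcontrol in 13 of 14 alternatives, including the fit without the cell line as block. The exception was HBD without MV4-11, so leaving out each line gave 0 to 1 called, and 0 to 58 of all features. For the 3 contrasts between lines the counts stayed within 1.5 times their main value in most alternatives. Testing only features with 1 symbol, which removes the alpha-globin and the gamma and epsilon features by construction, left 1 feature called for K562 against UT7-5.3, 3 for K562 against MV4-11 and 4 for UT7-5.3 against MV4-11. For K562 against UT7-5.3, robust variance estimation gave 1, no minimum fold 4 and a minimum of 4-fold 0. Over all features, no minimum fold raised the calls of that contrast to 7199 and the 4-fold minimum left 3.23% of features, against 10.2%. Against MV4-11 the same 2 settings gave 8818 and 915 for K562, against 2669, and 8415 and 781 for UT7-5.3, against 2381. Adding features with no listed symbol gave 3350 between K562 and UT7-5.3, and 5418 and 4715 against MV4-11. The mean difference of the feature listing HBA2 first, 0.02, became -0.0061 with quantile normalization, -0.021 with cyclic loess, and ranged from -0.065 to 0.17 with a line left out. The feature listing HBA1 first, 0.06, became -0.012 and -0.010 in the same 2 normalizations. HBM, -0.08, ranged from -0.22 to 0.025 with a line left out, the highest without MV4-11. HBQ1, at 0.00, was 0.0081 with quantile normalization and 0.038 with cyclic loess. The cause of these turns was not tested. HBD, AHSP, HBZ, HBB and the gamma and epsilon feature kept their direction in all alternatives run, but not their size. Without UT7-5.3, HBD was 0.30, HBZ 0.13, HBB 0.055 and the gamma and epsilon feature 0.065, against 0.64, 0.21, 0.22 and 0.22 over 3 lines. Without MV4-11, HBB was 0.40 and HBD 0.985.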

Other observations

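TUBB1, the beta-tubulin of platelets, was at 7.45 with shRINF and 6.93 with shcontrol in K562, at 6.59 and 6.05 in UT7-5.3, and at 4.72 and 5.10 in MV4-11. Its differences were thus 0.52, 0.54 and -0.38. It was the 1 megakaryocytic marker of 7 that was higher in UT7-5.3, while in K562 4 of 7 were higher. TUBB1 was picked from the marker list after its values were seen, and it was not called over all features (limma adjusted p = 0.776).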
